A study of Homo sapiens with 6 samples.

Results

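The HOX genes of MDA-MB-436 cells were examined in control and MUC1-silenced libraries. Members were rows of the count table whose symbol was HOXA, HOXB, HOXC or HOXD followed by a number, and 38 of the 37887 genes listed are described. MDA-MB-436 is an established triple-negative breast cancer line with a mutant BRCA1 gene, and every library came from MDA-MB-436 cells that carried the same doxycycline-inducible shRNA against MUC1 in a lentiviral vector (pLKO-tet-puro) with puromycin selection. The 3 control libraries received 0.1% DMSO as vehicle, and the 3 shMUC1 libraries received 500 ng/ml doxycycline (DOX). The titles name the control as a control shRNA, but the treatment labels and the design text give the inducible MUC1 shRNA cells with vehicle, and the samples were read that way. Cells were cultured in triplicate. The model is 1 line with 1 shRNA, a DOX-treated control shRNA was not analysed here, and DOX and MUC1 silencing therefore cannot be told apart. The length of DOX treatment is not given in the labels for these cells.

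HOX genes encode homeodomain transcription factors that give cells their position along the body axis. In vertebrates they lie in clusters on different chromosomes and are numbered by paralogous group, so that low numbers (anterior genes) sit at the 3-prime end and are used toward the head, while high numbers (posterior genes) sit at the 5-prime end and are used toward the tail, the distal limb and the genital tract. HOX proteins bind DNA together with TALE homeodomain cofactors of the PBX and MEIS families. Polycomb complexes hold the clusters silent, trithorax-group complexes with MLL-family methyltransferases hold them active, and retinoic acid induces the anterior members in the embryo. Adult tissues keep part of this code, and several members are expressed in the mammary gland and in breast cancers.

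The 10 HOXA genes described span chr7:27100354-27200106 (99.8 kb) in GRCh38 with GENCODE release 29. The HOXB cluster spans chr17:48528526-48729178 (201 kb) with 10 members, the HOXC cluster spans chr12:53938765-54056030 (117 kb) with 9, and the HOXD cluster spans chr2:176092891-176190907 (98.0 kb) with 9. Library totals ran from 18678307 to 27825546 counts, and a gene at 0 in the shallowest library could still have been present at up to 0.161 counts per 1000000 counts (CPM), the level of 3 counts. That floor covers counting error only, since the libraries hold no molecular identifiers. It takes each count as independent. Most low counts were even, and the floor would be higher if counts came in pairs. Levels are given as CPM on library sizes scaled by the TMM method, and differences are log2 fold changes of shMUC1 over control from edgeR's quasi-likelihood test, with the standard error (SE) and the p adjusted by Benjamini-Hochberg over all 15355 genes tested. Nothing in the labels states that the cultures were independent, so p-values measure the spread between these libraries, which may be technical.

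The targeted gene was examined first. MUC1 counts were 93, 84 and 102 with vehicle and 72, 51 and 34 with DOX, and the groups did not overlap. Its level decreased from 3.88 ± 0.401 CPM to 2.14 ± 0.412 CPM (SD, n = 3), with a log2 fold change of -0.84 (SE 0.214, edgeR adjusted p 0.00119). The silencing was partial at the RNA level. Of the markers checked for the labelled cell type, ESR1 had 2 to 12 counts and PGR 0 to 4 counts per library, whereas ERBB2 was present at 44.7 CPM in control. Epithelial and mesenchymal markers moved with the groups. Of 5 epithelial markers 4 rose, with log2 fold changes of 2.12 for EPCAM, 3.55 for CDH1, 0.95 for KRT8 and 1.02 for KRT18, while KRT19 had 0 to 2 counts, and the summed level was 540.0 to 574 CPM in control and 1090.2 to 1131 CPM in shMUC1 libraries. Of 4 mesenchymal markers, VIM (-0.78), ZEB1 (-0.97) and CDH2 (-0.22) fell and FN1 (0.42) rose, with a summed level of 1843 to 1874 CPM and 1821 to 1867 CPM. All 8 of these log2 fold changes had an edgeR adjusted p under 0.05. Among 3 basal markers KRT17 rose (1.39, edgeR adjusted p 0.0107) at 6 to 32 counts, and their summed level reached 1.90 CPM in the highest library. The part of this marker difference in any HOX difference was not tested. In such bulk libraries, fewer cells that express a gene and less RNA per cell cannot be told apart. Defining leukocyte, endothelial and adipocyte markers were at or near 0, with CD3E and ADIPOQ at 0 in all 6 libraries, CDH5 at 0 to 2 counts and PLIN1 at 0 to 14. PTPRC (2 to 24 counts) was higher and PECAM1 (4 to 40 counts) lower in shMUC1 libraries, with log2 fold changes of 1.59 and -1.94 (edgeR adjusted p 0.0113 and 0.000320).

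Most of the HOX code was expressed at low level or not detected. Of the 38 HOX genes, 24 passed the filter on low counts and were tested, 14 did not pass, and 3 of those 14 (HOXB1, HOXB2 and HOXD9) had no count in any library. The median level of the 24 tested members over all libraries was 2.60 CPM, against 18.2 CPM for all tested genes. Levels were compared between HOX genes per kilobase of annotated exon. In control cells HOXD4 was highest with 9.47 ± 0.704 CPM per kb (SD, n = 3), followed by HOXC13 with 6.75 ± 0.328, HOXC8 with 4.35 ± 0.558, HOXB7 with 4.04 ± 0.453, HOXA3 with 3.69 ± 0.205 and HOXC4 with 3.20 ± 0.328 CPM per kb. These 6 genes held 64.1% of the summed HOX level per kb, and they come from anterior, central and posterior groups of all 4 clusters. The SD ranges of neighbours overlapped from HOXC8 through HOXB7 and HOXA3 to HOXC4, so that their order is not set beyond the spread, whereas HOXD4 and HOXC13 stood apart from each other and from HOXC8. HOXA10 (1.92 ± 0.0799), HOXC6 (1.82 ± 0.269) and HOXD8 (1.81 ± 0.0713 CPM per kb) came next and could not be ordered either. The order leans on the length used. With the longest transcript in place of all exons, HOXC4 had 5.24 CPM per kb and took rank 3. HOXD4 shares 80.5% of its exon bases and HOXD3 62.2% with another annotated transcript on the same strand, so reads of those genes may have been divided or set aside by the counting.

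**Figure D1:**
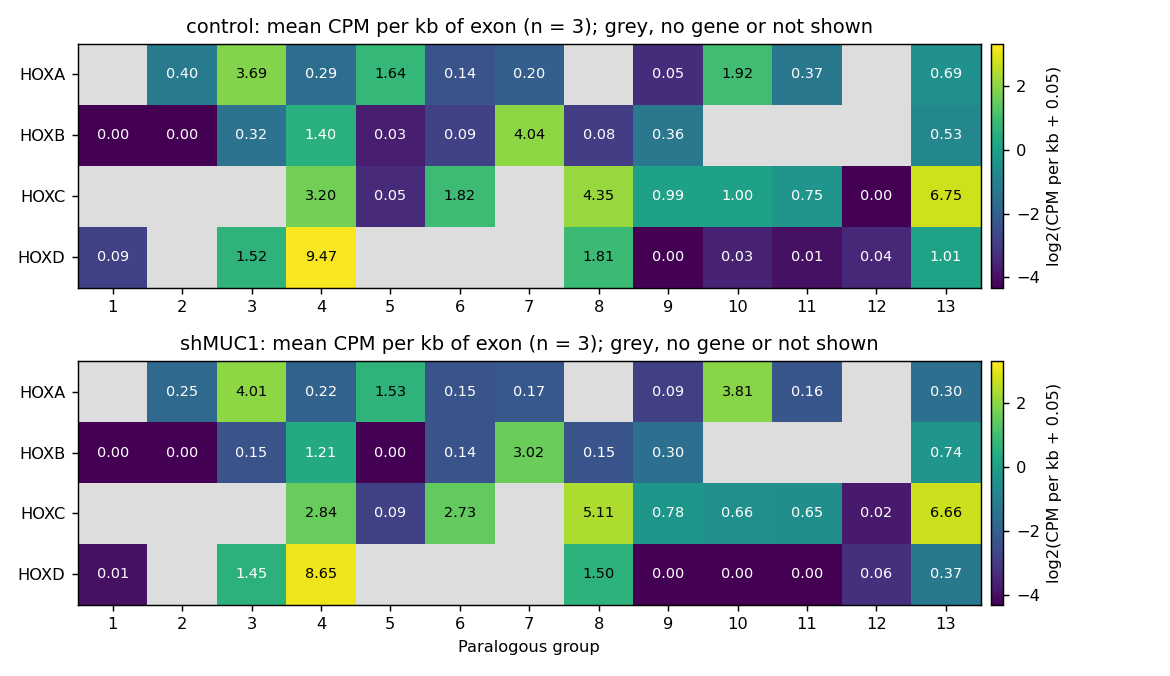
Mean level of each HOX gene in CPM per kb of exon in control (top) and shMUC1 (bottom) libraries, with clusters as rows, paralogous groups 1 to 13 as columns, the colour on a log2 scale and grey where no gene exists or none is shown (n = 3 libraries per group). HOXD4 is highest in both groups (9.47 and 8.65), while HOXA10 goes from 1.92 to 3.81 CPM per kb.

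The genes below the filter are spread over all clusters and include stretches of neighbours. In the HOXD cluster, the members between HOXD13 and HOXD8 were nearly silent, with 0 to 4 counts for HOXD12, 0 to 1 for HOXD11, 0 to 6 for HOXD10 and 0 for HOXD9, whereas HOXD13 itself had 13 to 59 counts. HOXD1, at the other end, had 5, 4 and 4 counts in control and 0, 2 and 0 in shMUC1 libraries. In the HOXB cluster the anterior HOXB1 and HOXB2 were at 0, HOXB5 had 0 to 2 counts, HOXB6 had 2 to 13 and HOXB8 had 2 to 10. HOXA6 had 3 to 6 counts, HOXA9 had 0 to 12, HOXC5 had 1 to 6 and HOXC12 had 0 to 4. Some of these genes share exon bases with other annotated transcripts on the same strand, so their reads may have been set aside by the counting. The shares are 59.9% for HOXC5, 21.4% for HOXD11, 16.8% for HOXD10, 16.6% for HOXB6 and 15.9% for HOXA9. HOXA9, known as a leukemia-associated member, was thus detected at few counts although its neighbour HOXA10 was among the more abundant HOX genes.

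MUC1 silencing was accompanied by changes of a minority of HOX genes, in both directions. Of the 24 tested members, 2 rose (HOXA10 and HOXC6) at an edgeR adjusted p under 0.05, which is 8.33% of them, where 25.2% of all 15355 tested genes rose. Another 5 fell (HOXA11, HOXA13, HOXB3, HOXB7 and HOXD13), which is 20.8% of them, where 23.6% of all tested genes fell. The 7 called members are 29.2% of those tested, against 48.7% of all tested genes, and 17 members did not pass the test. An unadjusted p under 0.05 was reached by 8 of the 24, where 48.7% of all tested genes passed even after adjustment. With a fold change over 2 asked for as well, the thresholds of the study, 0 HOX genes rose and 4 fell (HOXA11, HOXA13, HOXB3 and HOXD13), where 2.21% of all tested genes rose and 3.74% fell. The 3 libraries of one group did not overlap those of the other for 11 of the 24 (45.8%), against 54.8% of all tested genes. HOXA10 stood just under that threshold with a 1.99-fold change. Apart from the falls past 2-fold, each of these shares of HOX genes was below the share of all tested genes. The median log2 fold change of the 24 was -0.22, against 0.00058 over all tested genes, with 5 values above 0 and 19 below. The median size of the log2 fold change was 0.30 for HOX genes and 0.24 for all tested genes.

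HOXA10, a posterior member required in the uterus and known to be induced by steroid hormones in endometrium, showed the largest rise. It lies at chr7:27170591-27180261 on the minus strand of GRCh38. HOXA10 counts were 161, 165 and 186 with vehicle and 410, 354 and 258 with DOX, that is 7.34, 6.77 and 7.20 CPM against 14.8, 13.7 and 13.9 CPM. All shMUC1 libraries lay far above all control libraries. The mean went from 7.10 ± 0.296 to 14.1 ± 0.598 CPM (SD, n = 3), or 1.0 on the log2 scale (SE 0.113, edgeR adjusted p 1.93e-09). The gene shares 9.93% of its exon bases with another transcript on the same strand and 16.4% with the antisense gene HOXA10-AS, which itself had 0 to 2 counts. HOXA10 has more than 1 annotated start. The 250 bases before one of them are shown because this gene rose most, with matches to the TATA-box word TATAAA or the CCAAT-box word CCAAT on either strand in capitals (RefSeq, GRCh38.p14, chr7:27174321-27174570, minus strand).
HOXA10 promoter: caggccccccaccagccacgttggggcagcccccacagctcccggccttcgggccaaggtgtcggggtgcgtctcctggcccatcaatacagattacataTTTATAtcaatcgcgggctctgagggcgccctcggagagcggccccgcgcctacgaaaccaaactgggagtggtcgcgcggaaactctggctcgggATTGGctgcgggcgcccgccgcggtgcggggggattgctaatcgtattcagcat

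Per kb of exon, HOXA10 went from rank 7 to rank 5 among the HOX genes described. HOXC6, a central member expressed in the thoracic region and in mammary gland, lies at chr12:53990624-54030823. HOXC6 counts were 165, 139 and 158 in control and 269, 243 and 184 in shMUC1 libraries, or 7.52, 5.70 and 6.11 against 9.73, 9.43 and 9.88 CPM. The shMUC1 values were close together and above every control value. HOXC6 rose by 0.59 on the log2 scale (SE 0.130, edgeR adjusted p 0.000246), from 6.44 ± 0.953 to 9.68 ± 0.231 CPM (SD, n = 3). Of its exon bases 15.7% are shared on the same strand with HOXC4, HOXC5 and HOXC9.

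Of the 2 genes that rose, HOXA10 is posterior and HOXC6 central. The 5 that fell come from HOXA, HOXB and HOXD, and 3 of them are posterior, as are 10 of the 24 tested members. The terminal genes of HOXA and HOXD were both among those that fell. HOXC13 (log2 fold change -0.02) and HOXB13 (0.45), terminal as well, did not pass. HOXD13, which shapes the digits and is mutated in synpolydactyly, lies at chr2:176092891-176095938 and showed the largest fall. HOXD13 had 59, 48 and 55 counts in control and 34, 15 and 13 in shMUC1 libraries, or 2.69, 1.97 and 2.13 against 1.23, 0.582 and 0.698 CPM. The library of shMUC1 replicate 1 was higher than the other two shMUC1 libraries but below all control libraries. The mean went from 2.26 ± 0.378 to 0.837 ± 0.345 CPM (SD, n = 3), and HOXD13 fell by 1.40 on the log2 scale (SE 0.321, edgeR adjusted p 0.000392). HOXA13, its paralog at chr7:27193503-27200106, acts in the distal limb and genital tract and is mutated in hand-foot-genital syndrome. HOXA13 counts were 72, 80 and 101 in control and 38, 32 and 36 in shMUC1 libraries, or 3.28, 3.28 and 3.91 against 1.37, 1.24 and 1.93 CPM. The groups were well separated. HOXA13 fell by 1.23 on the log2 scale (SE 0.245, edgeR adjusted p 6.59e-05), from 3.49 ± 0.361 to 1.52 ± 0.367 CPM (SD, n = 3). HOXA11, the neighbour of HOXA13 and HOXA10 that acts in the forearm and uterus, was close to the limit of detection. It had 16, 15 and 31 counts in control and 11, 12 and 4 in shMUC1 libraries, or 0.729, 0.615 and 1.20 against 0.398, 0.466 and 0.215 CPM. HOXA11 had a log2 fold change of -1.19 (SE 0.469, edgeR adjusted p 0.0336), and the call was lost without control replicate 3 (-0.86, adjusted p 0.227) or shMUC1 replicate 1 (-1.25, adjusted p 0.0743) or 3 (-0.97, adjusted p 0.126), with DESeq2 (adjusted p 0.0632) and with a replicate block (adjusted p 0.0603). It also shares 31.1% of its exon bases with HOXA11-AS on the other strand.

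The promoters of HOXA13 and HOXD13 are shown for the paralogs that fell together, in the same notation as for HOXA10 (RefSeq, GRCh38.p14, chr7:27200092-27200341, minus strand, of which 15 bases lie in the GENCODE exon, and chr2:176092471-176092720, plus strand).
HOXA13 promoter: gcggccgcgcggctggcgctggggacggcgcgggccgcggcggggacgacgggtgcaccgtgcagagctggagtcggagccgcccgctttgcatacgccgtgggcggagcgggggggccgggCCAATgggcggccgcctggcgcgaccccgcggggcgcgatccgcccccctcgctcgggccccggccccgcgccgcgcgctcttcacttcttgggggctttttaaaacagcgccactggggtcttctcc
HOXD13 promoter: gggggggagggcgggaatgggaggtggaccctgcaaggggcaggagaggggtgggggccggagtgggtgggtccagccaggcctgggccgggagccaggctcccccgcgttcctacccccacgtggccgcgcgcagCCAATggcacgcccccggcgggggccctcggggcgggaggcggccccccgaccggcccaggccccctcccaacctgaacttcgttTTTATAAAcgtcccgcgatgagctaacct
Each holds 1 CCAAT, and the HOXD13 window also holds TATAAA, which reads on both strands of the same 8 letters. The HOXA13 window has 40 CpG sites and 78.0% GC, the HOXD13 window 21 and 74.0%. HOXA11, which also fell, has a window, not printed, with 0 CCAAT, 0 TATAAA, 11 CpG sites and 51.6% GC. The table of RefSeq promoters held 27 windows for 20 of the 38 HOX genes. CCAAT on either strand was found in 18 of these 27 (66.7%) and in 32.0% of all 35116 promoter windows of that length. TATAAA was found in 5 (18.5%) against 10.7% of all, and TGATNNAT, the word bound jointly by HOX and PBX proteins, in 3 (11.1%) against 6.47%. The median number of CpG sites was 19 in HOX windows and 11 in all windows, at a GC content of 58.8% and 58.0%. HOX genes with several starts, or with a shared start, enter these counts more than once, and a match to letters is a description only.

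HOXA13 and HOXD13 also carry the 7-base word ATCAGTA in the 3-prime untranslated region (3' UTR). This word was taken from an earlier reading of these same libraries and is no independent evidence. It is shown because both genes that hold it fell, with the word in capitals inside 29 bases of the transcript from GENCODE release 29. The HOXA13 site starts at position 2789 of a 3834-base 3' UTR and the HOXD13 site at position 782 of a 1208-base 3' UTR, counted from 1 at its first base.
HOXA13 site: atgttggtggaATCAGTAgccgtgggatg
HOXD13 site: aaatggctgcaATCAGTAgagtgacccgc
The word was present in 2 of the 5 HOX genes that fell, 0 of the 2 that rose and 0 of the 17 not called. That is 2 of 24 tested HOX genes (8.33%), against 12.8% of the 13023 tested genes with an annotated 3' UTR. The same split by call was not taken over all tested genes, so no link of the word with a fall can be read from it.

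The HOXB genes that fell differ in level. HOXB3, an anterior gene of hindbrain and pharyngeal arches, lies at chr17:48548870-48604912. HOXB3 had 52, 58 and 64 counts in control and 31, 23 and 23 in shMUC1 libraries, or 2.37, 2.38 and 2.48 against 1.12, 0.892 and 1.24 CPM. The control libraries were nearly alike and every shMUC1 library lay far below them. HOXB3 fell by 1.16 on the log2 scale (SE 0.283, edgeR adjusted p 0.000777), from 2.41 ± 0.0587 to 1.08 ± 0.175 CPM (SD, n = 3), and it shares 7.94% of its exon bases on the same strand with HOXB4 and HOXB6. HOXB7, a central gene that has been linked to breast cancer cell growth, lies at chr17:48607227-48633572. HOXB7 had 128, 170 and 148 counts in control and 126, 112 and 92 in shMUC1 libraries, or 5.83, 6.97 and 5.73 against 4.56, 4.35 and 4.94 CPM. The groups did not overlap but lay close. HOXB7 fell by 0.43 on the log2 scale (SE 0.154, edgeR adjusted p 0.0212), and the call was lost without control replicate 2 (-0.33, adjusted p 0.128), shMUC1 replicate 1 (adjusted p 0.0564) or shMUC1 replicate 2 (adjusted p 0.0699).

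**Figure D2:**
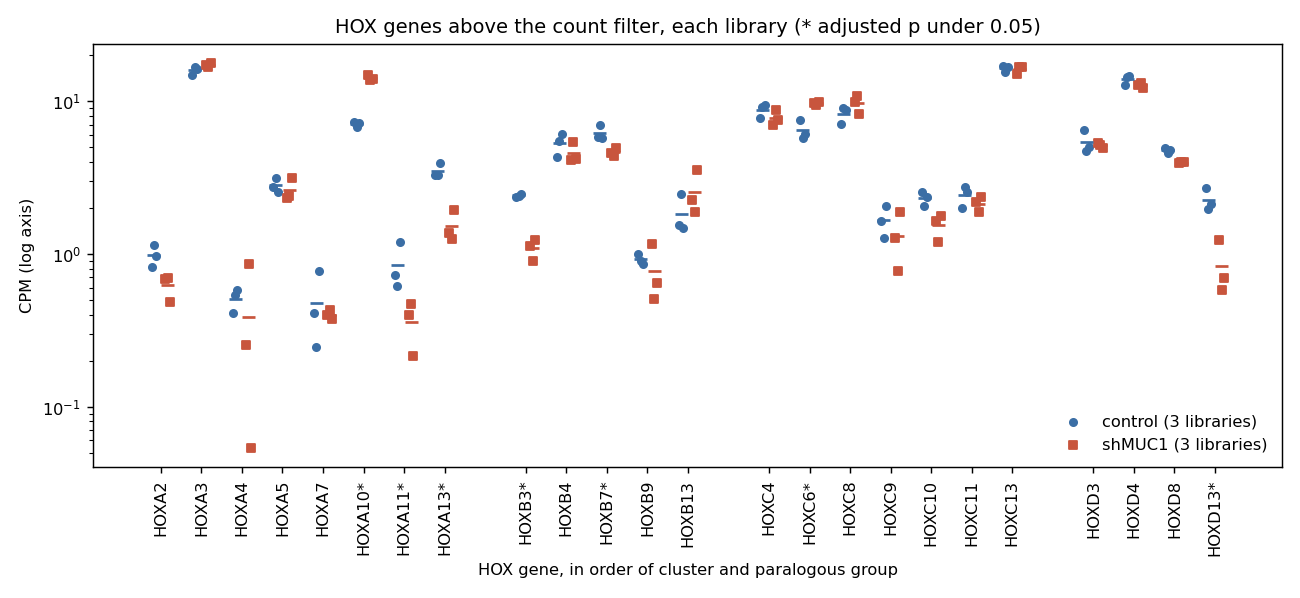
CPM on a log axis of the 24 tested HOX genes in each of 3 control (circles) and 3 shMUC1 (squares) libraries, with short lines at the group means and an asterisk for an edgeR adjusted p under 0.05. The groups separate for HOXA10 (7.10 against 14.1 CPM) and HOXA13 (3.49 against 1.52 CPM), whereas they overlap for HOXC13 and HOXD4.

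The abundant HOXC13, HOXD4 and HOXA3 gave small differences with narrow errors, while the errors of HOXC8 and HOXD8 were wider. HOXC13, which acts in hair and nail, had 373, 377 and 429 counts in control and 413, 433 and 311 in shMUC1 libraries, with a log2 fold change of -0.02 (SE 0.0939, edgeR adjusted p 0.876). The CPM of the groups overlapped. HOXD4 had 278, 352 and 374 counts in control and 351, 336 and 228 in shMUC1 libraries, a log2 fold change of -0.13 (SE 0.102, edgeR adjusted p 0.305). HOXA3, needed for thymus and parathyroid, had 327, 405 and 417 counts in control and 479, 432 and 329 in shMUC1 libraries, a log2 fold change of 0.12 (SE 0.0918, edgeR adjusted p 0.310). HOXA3 did not overlap between groups in CPM, with 14.9 to 16.6 against 16.8 to 17.7, but the difference did not pass the test. HOXC8, which patterns brachial motor neurons, had 154, 219 and 224 counts in control and 274, 278 and 154 in shMUC1 libraries (log2 fold change 0.24, SE 0.128, edgeR adjusted p 0.127), and it passed without shMUC1 replicate 3 (0.33, adjusted p 0.0471). HOXD8 had a log2 fold change of -0.27 (SE 0.167, edgeR adjusted p 0.187) with 4.55 to 4.92 CPM in control and 3.91 to 3.97 in shMUC1 libraries, which do not overlap.

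Of the other members that did not pass, HOXC10, a posterior gene of the lumbar spinal cord, came closest. HOXC10 had 56, 50 and 61 counts in control and 45, 31 and 33 in shMUC1 libraries, or 2.05 to 2.55 against 1.20 to 1.77 CPM without overlap, and a log2 fold change of -0.60 (SE 0.268, edgeR adjusted p 0.0603). It passed with halved counts (adjusted p 0.0421). HOXA2, which patterns the second pharyngeal arch, had 18, 28 and 25 counts in control and 19, 18 and 9 in shMUC1 libraries, with no overlap in CPM and a log2 fold change of -0.63 (SE 0.397, edgeR adjusted p 0.197). HOXB13, a posterior gene known from prostate, had 34, 60 and 38 counts in control and 62, 48 and 66 in shMUC1 libraries, with a log2 fold change of 0.45 (SE 0.276, edgeR adjusted p 0.179). HOXB13 and HOXA13 or HOXD13, all of paralogous group 13, thus had fitted differences of opposite sign, although the HOXB13 value did not pass the test.

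The remaining 9 tested members overlapped between the groups and did not pass. HOXB4, known for expanding hematopoietic stem cells, had a log2 fold change of -0.21 (SE 0.169), and HOXC4 of -0.17 (SE 0.129). HOXD3 had -0.06 (SE 0.159) and HOXA5, needed in lung development, -0.12 (SE 0.225) on the log2 scale. HOXC9, a thoracic gene, had -0.37 (SE 0.330) and HOXC11 -0.20 (SE 0.245). At 1 to 32 counts per library, HOXA4 (-0.32, SE 0.561), HOXA7 (-0.26, SE 0.518) and HOXB9 (-0.23, SE 0.400) had errors above the differences, and the libraries of 1 group spread widely, as in HOXA4 with 7, 22 and 1 counts after DOX. HOXA7 in addition shares 62.5% of its exon bases with the antisense gene HOXA-AS3.

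**Figure D3:**
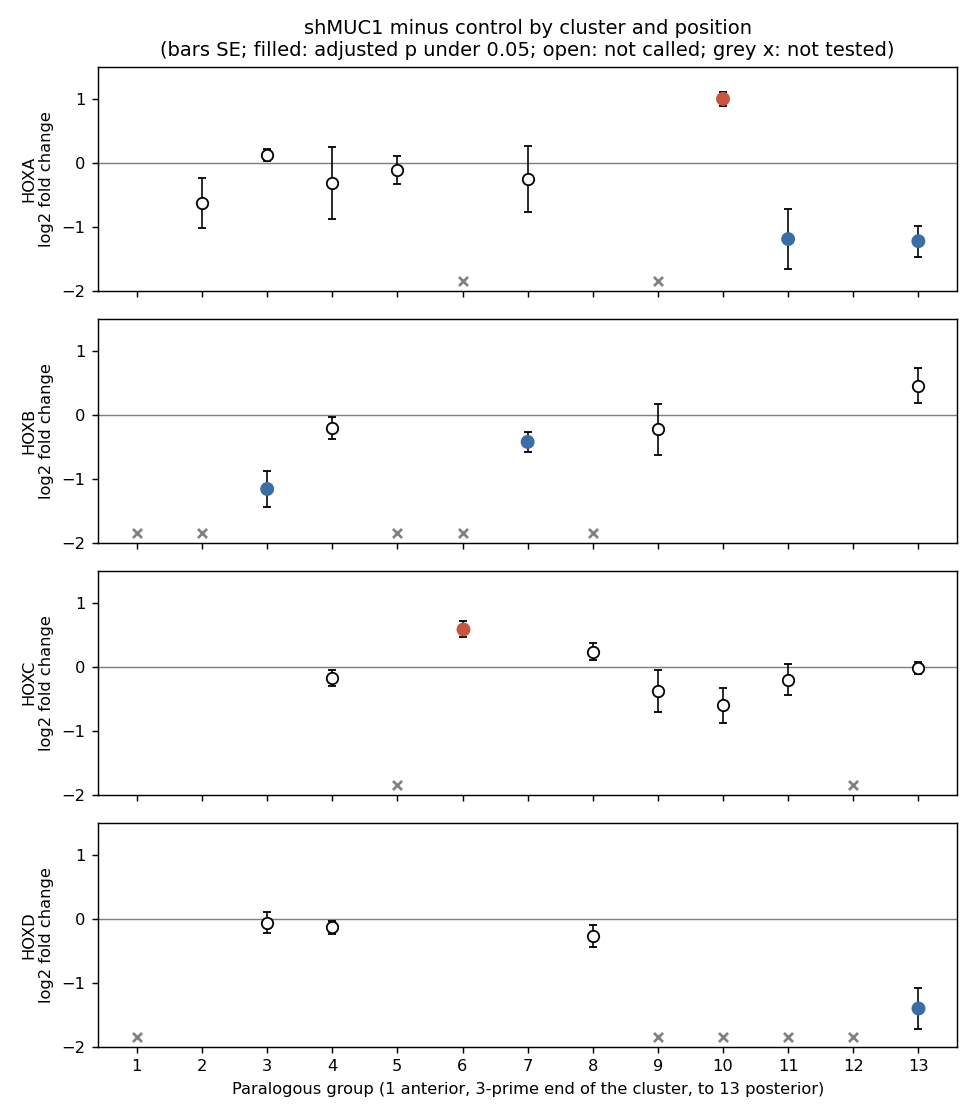
Log2 fold change of shMUC1 over control (edgeR) for each HOX gene by cluster and paralogous group, with bars of 1 SE, filled points for an adjusted p under 0.05, open points for tested genes that did not pass and grey crosses for genes below the count filter. The terminal HOXA13 (-1.23) and HOXD13 (-1.40) lie low, HOXC13 (-0.02) lies at 0 and HOXA10 (1.0) lies beside HOXA11 (-1.19).

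By cluster, HOXA had 1 gene that rose and 2 that fell among 8 tested, HOXB had 0 and 2 among 5, HOXC had 1 and 0 among 7, and HOXD had 0 and 1 among 4. By position, anterior genes (groups 1 to 3) had 0 rises and 1 fall among 4 tested, central genes (groups 4 to 8) had 1 and 1 among 10, and posterior genes (groups 9 to 13) had 1 and 3 among 10. Within the HOXA cluster, the 3 tested posterior genes all changed, HOXA10 upward and its neighbours HOXA11 and HOXA13 downward, while none of the 3 tested central genes passed. All 4 tested HOXD genes had log2 fold changes below 0, of which 1 passed the test. No test was run on these counts, which are small.

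The summed level of the genes described was taken for each cluster. HOXA summed to 30.9, 32.7 and 33.7 CPM in control and 38.2, 37.0 and 38.0 CPM in shMUC1 libraries, so that all shMUC1 libraries were higher. The HOXA mean went from 32.4 ± 1.44 to 37.7 ± 0.637 CPM (SD, n = 3), a ratio of 1.16-fold. HOXA10 alone gained 7.04 CPM, more than the 5.33 CPM by which the sum gained, and the other HOXA genes together went from 25.3 to 23.6 CPM. HOXB summed to 15.8, 18.5 and 16.9 CPM in control and 13.8, 13.7 and 15.2 CPM in shMUC1 libraries, which lay lower with a narrow gap. HOXC summed to 45.5, 45.4 and 47.8 CPM and to 46.8, 49.9 and 48.6 CPM, and these groups overlapped. HOXD summed to 27.3, 25.9 and 26.6 CPM in control and 23.3, 22.9 and 21.9 CPM in shMUC1 libraries, all lower. The log2 ratios of the means were 0.22 for HOXA, -0.26 for HOXB, 0.07 for HOXC and -0.23 for HOXD, and 0.0091 for the 38 HOX genes together, which summed to 122 ± 2.75 CPM in control and 123 ± 0.904 CPM in shMUC1 libraries (SD, n = 3) with overlapping groups. HOXA thus made up 26.5% of the summed CPM in control and 30.7% in shMUC1 libraries, while HOXD went from 21.8% to 18.4%. The sums are given without a test.

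**Figure D4:**
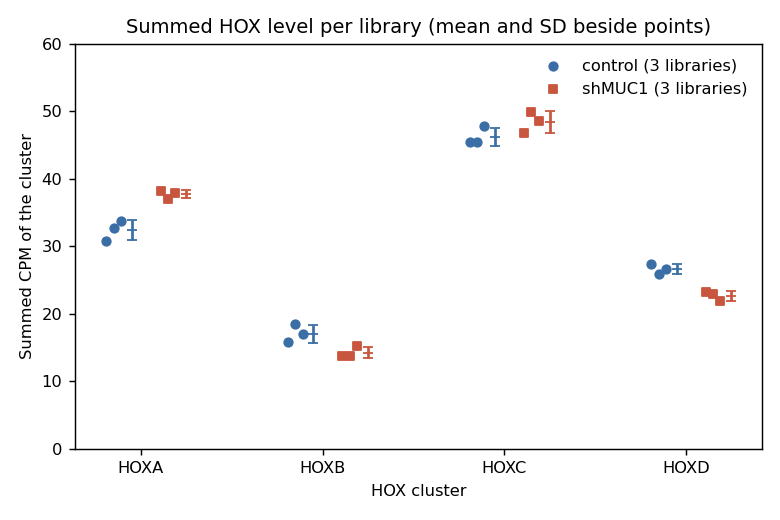
Summed CPM of the genes described in each HOX cluster in each of 3 control (circles) and 3 shMUC1 (squares) libraries, with the mean and SD beside the points. HOXA goes from 32.4 to 37.7 CPM and HOXD from 26.6 to 22.7 CPM without overlap, whereas the HOXC groups overlap.

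Non-coding transcripts inside the clusters were looked up as well. Of 24 antisense, long non-coding and microRNA genes looked up, 7 passed the filter and 0 passed the edgeR test in either direction (median log2 fold change -0.04), as was the case with DESeq2 and limma-voom, and 0 had an unadjusted p under 0.05. Of all tested genes 48.7% were called. Of those beside HOX genes that changed, HOXA10-AS, HOXA11-AS (1 to 5 counts) and HOTTIP lay below the filter and were not tested. HOXC-AS2, which shares exon bases with HOXC6 on the other strand, was tested at 26 to 44 counts. Its log2 fold change of -0.11 (SE 0.335, edgeR adjusted p 0.816) did not pass. HAGLR, a transcript of the anterior part of the HOXD cluster with the most counts of the list, had 380, 387 and 358 counts in control and 441, 349 and 305 in shMUC1 libraries, with a log2 fold change of -0.04 (SE 0.102, edgeR adjusted p 0.795). HOTAIRM1, a transcript of the anterior HOXA cluster that has been studied in myeloid differentiation, had 40, 46 and 38 counts in control and 55, 64 and 44 in shMUC1 libraries. These CPM values did not overlap, but the log2 fold change of 0.40 (SE 0.259, edgeR adjusted p 0.212) did not pass. HOTAIR, a HOXC-cluster transcript studied in breast cancer metastasis, had 2 to 8 counts per library and could not be tested. HOTTIP, which lies beside HOXA13, had 0 to 2 counts.

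Genes for cofactors of HOX proteins were compared next. Of 8 TALE genes described, all tested, 0 rose and 4 fell, with a median log2 fold change of -0.26, and the same 4 genes had an unadjusted p under 0.05. Of all tested genes 23.6% fell and 48.7% were called. PBX3, a DNA-binding partner of HOX proteins, had 593, 682 and 666 counts in control and 427, 372 and 270 in shMUC1 libraries. PBX3 decreased from 26.9 ± 1.11 to 14.8 ± 0.563 CPM (SD, n = 3) in all shMUC1 libraries, a log2 fold change of -0.86 (SE 0.0839, edgeR adjusted p 5.49e-11). MEIS2 fell by 0.36 (SE 0.0818, adjusted p 0.000342), MEIS3 by 0.55 (SE 0.209, adjusted p 0.0271, groups overlapping) and PKNOX2 by 1.32 (SE 0.522, adjusted p 0.0354, at 4 to 20 counts) in the same edgeR test. The number of TALE genes called ran from 2 to 4 when 1 library was left out and was 2 with DESeq2. It was 2 without shMUC1 replicate 1 or shMUC1 replicate 3.

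Genes that act on the clusters moved in both directions. Of 18 genes of retinoic acid signalling, 13 were tested, and 5 rose and 2 fell (median log2 fold change 0.12). DHRS3, a retinaldehyde reductase that is itself induced by retinoic acid, had 52, 37 and 79 counts in control and 148, 165 and 105 in shMUC1 libraries, and rose by 1.32 on the log2 scale (SE 0.200, edgeR adjusted p 7.87e-07), the largest rise of the list. CYP26B1, a retinoic acid hydroxylase, showed the largest fall among the called genes of the list with -0.19 (SE 0.0563, edgeR adjusted p 0.00551). The others that rose were the binding protein CRABP2, the retinol transporter STRA6 and the receptors RARA and RARG, and the other that fell was the receptor RXRA. Of 13 trithorax-side regulators, all tested, 4 rose and 3 fell (median -0.03). DOT1L, the H3K79 methyltransferase, rose by 0.56 on the log2 scale (SE 0.0644, edgeR adjusted p 2.76e-09), and KMT2D, an H3K4 methyltransferase, fell by 0.41 (SE 0.0482, edgeR adjusted p 4.73e-09). Of 17 Polycomb-side regulators, all tested, 6 rose and 4 fell (median 0.03). BMI1, a subunit of a Polycomb complex that holds HOX genes silent, fell by 0.70 on the log2 scale (SE 0.0499, edgeR adjusted p 1.39e-14), and RING1 rose by 0.40 (SE 0.151, edgeR adjusted p 0.029) with overlapping groups. The retinoic acid, trithorax-side and Polycomb-side lists had 7 of 13, 7 of 13 and 10 of 17 tested genes called, where 48.7% of all tested genes were. Without control replicate 2 the Polycomb-side count was 6.

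**Figure D5:**
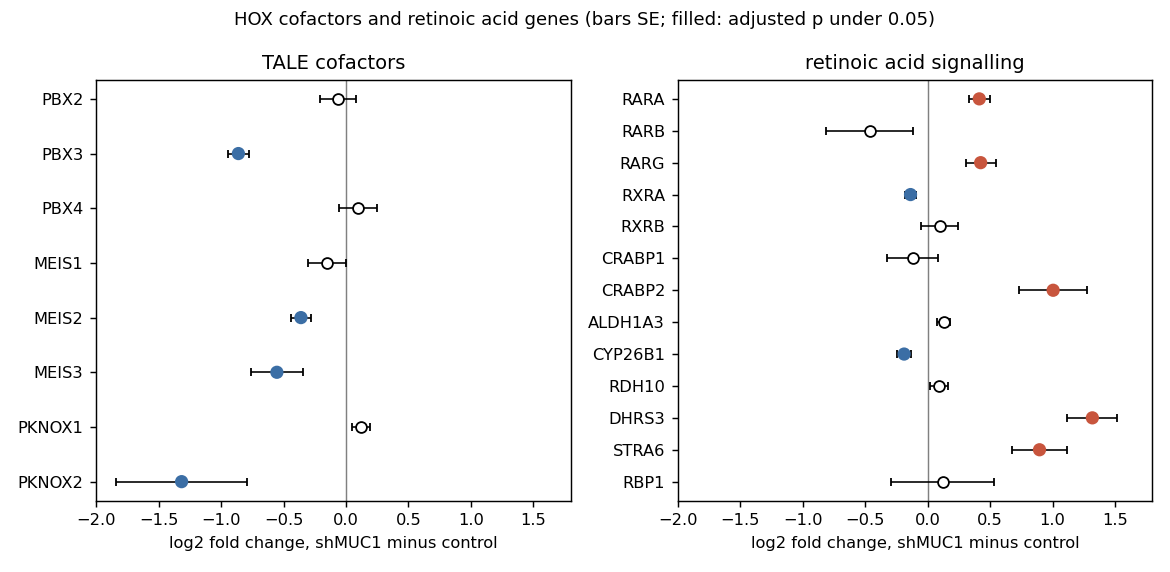
Log2 fold change of shMUC1 over control (edgeR, bars of 1 SE) for TALE cofactors (left) and retinoic acid genes (right), filled where the adjusted p was under 0.05. PBX3 (-0.86) and PKNOX2 (-1.32) lie low on the left, and DHRS3 (1.32) is highest on the right.

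Genes around the clusters and other homeobox genes were compared with the members. Of 12 genes that flank the clusters, 10 were tested, and 6 rose and 1 fell (median log2 fold change 0.32), where 25.2% of all tested genes rose and 23.6% fell. ATP5MC1, a mitochondrial ATP synthase subunit near HOXB, rose by 0.68 on the log2 scale (SE 0.0670, edgeR adjusted p 7.11e-11), and ATF2, near HOXD, fell by 0.38 (SE 0.0382, edgeR adjusted p 1.30e-10). SKAP2, which flanks the HOXA cluster and was singled out after its value was seen, rose by 0.60 (SE 0.0484, edgeR adjusted p 3.72e-13). SKAP1, beside HOXB1, and PRAC1, beside HOXB13, were at 0 in all libraries. Among 11 HOX-related homeobox genes 2 passed the filter. MNX1, a motor neuron and pancreas factor, had 53, 73 and 96 counts in control and 34, 45 and 33 in shMUC1 libraries and fell by 0.96 on the log2 scale (SE 0.255, edgeR adjusted p 0.00188). GBX2 did not pass (-0.28, SE 0.356, edgeR adjusted p 0.556). The ParaHox genes CDX1, CDX2, CDX4, GSX1 and GSX2 had no count in any library, and PDX1 had 12, 4 and 10 counts in control and 2, 4 and 4 in shMUC1 libraries, below the filter.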

How the data were processed

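Total RNA of MDA-MB-436 cells was sequenced after stranded mRNA library preparation, with 3 control and 3 shMUC1 libraries. The file the authors deposited holds unnormalized counts for each gene symbol, 1 column per library. The submitters' processing notes name CASAVA 1.8.2, STAR 2.7.9a, featureCounts, DESeq2 1.24.0 and GRCh38.p7. The annotation release and the strand setting of the counting are not given in the sources used here, so overlapping genes are uncertain. Among values from 1 to 20 counts, 68.8% to 70.5% were even in a library, and halved counts were therefore tried.

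Differences were tested two-sided in R 4.3.3 with edgeR 4.0.16 (quasi-likelihood, TMM, filterByExpr, group only). Benjamini-Hochberg adjustment covered all 15355 genes tested. A gene was called at an adjusted p under 0.05, and the SE was derived from the F statistic. Exon length, overlap and 3' UTRs came from GENCODE release 29 and promoters from RefSeq. Alternatives were DESeq2 1.42.0, limma-voom (limma 3.58.1), DESeq2 size factors, library totals, no filter, a mean of at least 50 counts, halved counts, a replicate block, a fold change over 2, the longest transcript as length and each library left out in turn. Counts of 2 libraries of 1 group differed beyond the sampling noise of independent counts (chi-square 2.79 to 5.55 times its degrees of freedom), and no library was counted as a duplicate. Counts that came in pairs would also raise this value, so it does not show that the cultures were independent. The HOX members, the gene lists and the word searched were chosen with earlier results of these data known. Of the 39 HOX rows, 1 is not reported here, nor are 2 genes of other lists, and these were left out of counts and sums over members and lists but not of the fit. The other tested HOX genes are named, and of each other list the called genes with the largest rise and fall. Other genes named were chosen after their values were seen. The test was also run on simulated counts in which 200 genes were changed. That is far fewer than were called in these libraries, so the run checks the code and not the error rates here.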

Additional observations from a re-analysis of the deposited data

How the results depend on the processing

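Over 324 alternative values for the 24 tested HOX genes, 308 kept direction and side of the threshold, 8 lost the call (HOXA11 in 5, HOXB7 in 3) and 2 gained it (HOXC10, HOXC8). HOXA10, HOXC6, HOXA13, HOXD13 and HOXB3 kept an adjusted p under 0.05 in every alternative that tested them. In the main fit HOXA10 and HOXC6 were under 2-fold and so lost the call where a fold change over 2 was asked for. HOXA10 lay just over 2-fold, a log2 fold change over 1, with no filter (1.006). It also did so without control replicate 1 (1.02), shMUC1 replicate 2 (1.019) or shMUC1 replicate 3 (1.013). A sign change occurred in 6 values, all of genes not called. Over the libraries left out in turn, HOXA4 ran from -1.57 to 0.11 (without shMUC1 replicate 3), HOXA7 from -0.57 to 0.29 (without control replicate 3), HOXB9 from -0.68 to 0.015 (without shMUC1 replicate 2), HOXC13 from -0.058 to 0.0087 (without control replicate 1) and 0.038 (without shMUC1 replicate 1), and HOXD3 from -0.14 to 0.083 (without control replicate 1). With a fold change over 2, 339 genes rose and 575 fell, with 0 and 4 HOX genes. At a mean count of 50 or more, 2 HOX genes fell, since fewer were tested. DESeq2 called 2 TALE genes, against 4 in the edgeR test, and the cause was not tested.

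When 1 library was left out, 3481 to 3651 genes rose and 3208 to 3481 fell, 2 to 3 HOX genes rose and 3 to 5 fell (3 without shMUC1 replicate 1), and 2 to 4 TALE and 6 to 10 Polycomb-side genes were called. The log2 ratio of sums ran from 0.19 to 0.24 for HOXA, from -0.31 to -0.20 for HOXB, from 0.05 to 0.09 for HOXC and from -0.25 to -0.20 for HOXD.

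With the replicate number as a block, 2 HOX genes rose and 4 fell, HOXA11 being lost (-1.15, adjusted p 0.0603). The deviations of libraries with the same number correlated at 0.017, -0.03 and -0.04, so the numbers were not taken to pair the libraries. Depth limits the members below about 30 counts.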
